A study of Mus musculus with 2 samples.

Results

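The genes described here encode proteins that find and mend broken or damaged bases and strands of DNA, and they were read in splenic and lung Tregs of mice given bleomycin (BLM), a drug that cuts DNA. The set was given as a list of 39 gene symbols, and all 39 were present among the 24346 symbols listed in both libraries. The rule lists names and sets no threshold on a level. Each library held GFP+CD4+ T cells sorted on day 15 from FDG mice (genotype Foxp3-DTR-GFP, in which the Foxp3 locus drives GFP and the receptor for diphtheria toxin), after 50 μg of intratracheal BLM at 10 to 16 weeks of age. One library came from spleen and 1 from lung, each made from the combined cells of 3 mice. Both groups carried the same reporter and both received BLM, so no library came from uninjured mice and the comparison is of tissues after BLM.

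A double-strand break is sensed by the complex of Mre11a, Rad50 and Nbn, which brings in the kinase Atm, whereas Atr is drawn to single-stranded DNA. These kinases phosphorylate the histone variant encoded by H2afx, and Mdc1, Rnf8, Rnf168 and Trp53bp1 then gather on the marked chromatin. The ends are either joined directly by the Ku proteins, Prkdc and Lig4, a route open in resting cells, or copied from the sister chromatid through Brca1, Palb2, Brca2, Rad51c, Xrcc2 and Xrcc3, a route of cycling cells. Damaged bases and single-strand breaks are handled by Ogg1, Apex1, Polb, Xrcc1, Lig3 and the Parp enzymes. T cells also use end joining to assemble their receptor genes. The gene symbol Blm denotes the helicase of Bloom syndrome and has nothing to do with the abbreviation of the drug.

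With 1 library for each tissue there is no replicate, so no p-value is given and no difference below has a check across mice. Levels are FPKM, the fragments mapped to a gene scaled by its length and by the size of the library, as computed by the authors. Ratios are lung over spleen with a floor of 0.1 FPKM. Reads behind an FPKM were estimated from what 1 read was worth in each library, and 95% exact (Clopper-Pearson) intervals of the ratio cover the counting of reads only. Reads copied by PCR are not independent molecules. Summed FPKM were 599633 in spleen and 808853 in lung, and the estimated reads came to 9865862 and 12885623. In bulk RNA, fewer cells of a type and less RNA per cell cannot be told apart. The sort was on GFP from the Foxp3 locus, and Foxp3 stood at 18.7 FPKM in spleen and 41.8 in lung and Cd4 at 195 and 179. Of 6 Treg markers 4 were higher in lung, with a median log2 ratio of 1.01. The 9 listed T cell markers had a median log2 ratio of -0.0030 and summed FPKM of 4489 in spleen and 4402 in lung. All 12 macrophage markers were higher in lung, with summed FPKM of 775 and 26663, most of the lung sum being Lyz2. All 8 B cell markers were lower in lung (268 and 139). Fibroblast markers summed to 1.15 and 80.6 FPKM, with 4 of 8 listed at 0 in spleen. Epithelial markers summed to 12.8 and 3127 with 2 of 7 at 0 in spleen. Of these 7, 5 were higher in lung and 2 lower, and 1 gene held 3021 FPKM of the lung sum. Endothelial markers summed to 55.4 and 40.8, with 2 of 6 at 0 in spleen and 1 in lung. Of these 6, 4 were higher in lung and 1 lower, with a median log2 ratio of 1.58. A single gene held 54.8 FPKM of their splenic sum. Neutrophil markers summed to 431 and 1214, and 6 of 7 were higher in lung. The part of these cells in the levels of the repair genes was not tested.

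All 39 genes were above 0 in spleen, and 37 were above 0 in lung. Their summed FPKM was 442 in spleen and 419 in lung, or 0.0737% and 0.0518% of each library's total. The median gene stood at 8.93 FPKM in spleen and 8.70 in lung. Polb was the highest in lung (53.3 FPKM) and Parp2 in spleen (42.9 FPKM). The lowest in spleen was Chek1 (0.393 FPKM), and in lung Palb2 and Rad51c were listed at 0. The median log2 ratio of lung over spleen was -0.16 across the 39 genes and 0 across all symbols.

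**Figure D1:**
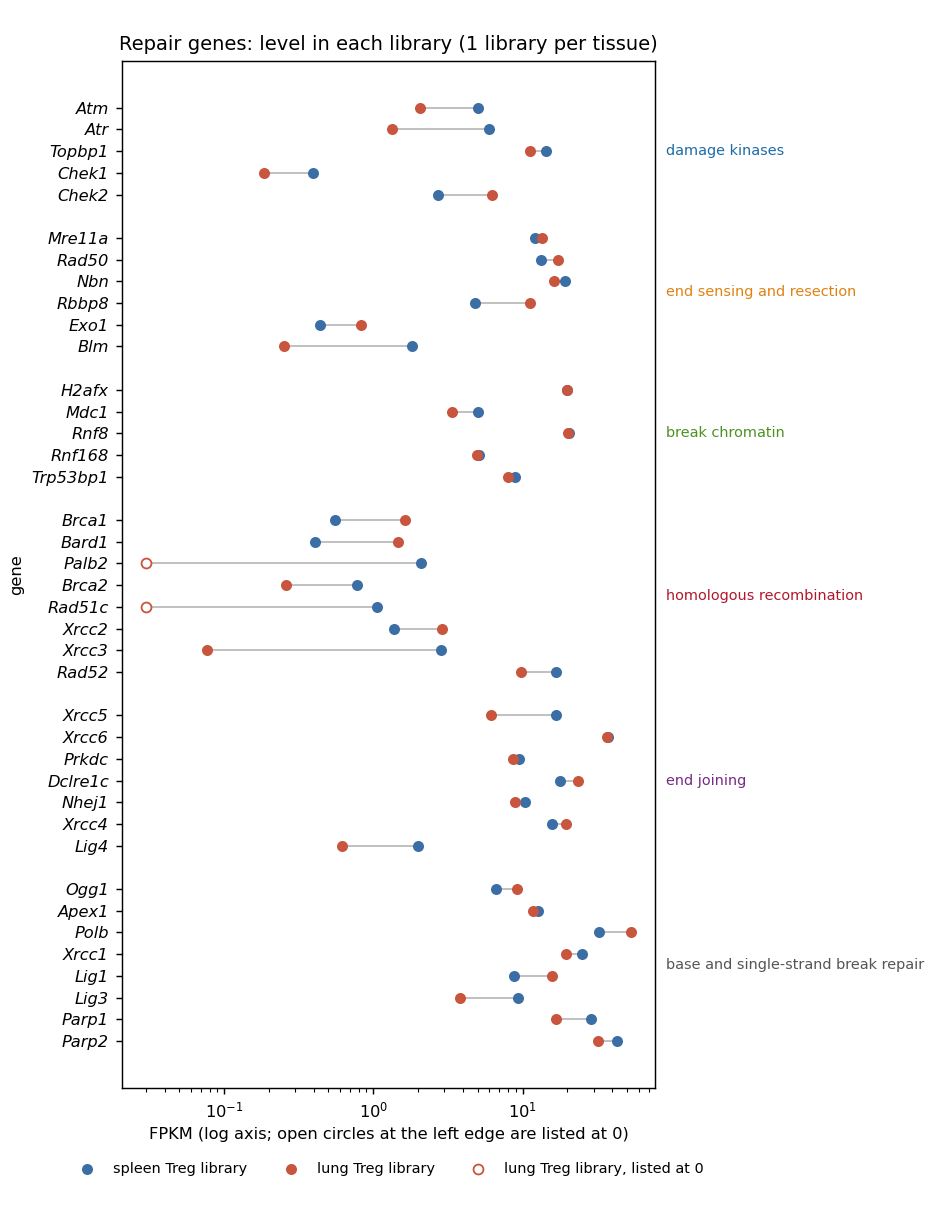
FPKM of the 39 repair genes (rows, grouped by role) in the splenic and the lung library on a log axis, 1 library per tissue, with a grey line joining the 2 values of a gene. Genes above 20 FPKM have short lines, the break chromatin genes nearly coincide, and Palb2 and Rad51c are listed at 0 in lung.

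Of the 39 genes, 23 lay within 2-fold in either direction. A further 5 were over 2-fold higher in lung (Chek2, Rbbp8, Brca1, Bard1 and Xrcc2), or 12.8%, against 11.0% of all listed symbols. The other 11 were over 2-fold lower (Atm, Atr, Chek1, Blm, Palb2, Brca2, Rad51c, Xrcc3, Xrcc5, Lig4 and Lig3), or 28.2%, against 11.7% of all listed symbols. Among all symbols, 9542 were at 0 in spleen and 10638 in lung. Of the 12094 genes that reached 1 FPKM in either library, 36 were members, and 5 of these were over 2-fold higher (13.9%, against 17.8% of all) and 9 over 2-fold lower (25.0%, against 15.5%). The higher share was thus below that of all genes at this level, and the lower share was above it. After both libraries were rescaled to TPM, which lowered all log2 ratios by 0.43, the split was 2 higher and 14 lower, with Chek2, Rbbp8 and Xrcc2 no longer past 2-fold and Mdc1, Rad52 and Parp1 now past it. With that rescaling Mre11a, Rad50, H2afx, Dclre1c and Xrcc4 changed from above to below 0. Rad50, Dclre1c and Xrcc4 did so although their intervals of read counting lay above 1 before rescaling. Closest to the limit of 2-fold were Xrcc2 (2.11-fold higher) and Exo1 (1.91-fold higher), and on the other side Chek1 (2.11-fold lower) and Rad52 (1.71-fold lower).

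The spread of ratios followed the level. All 7 members at 20 to 100 FPKM in the higher library (Polb, Parp2, Xrcc6, Parp1, Xrcc1, Dclre1c and Rnf8) lay within 2-fold (all but Parp1 after rescaling to TPM), where 17.6% of all genes at that level did not. Of the 21 members at 5 to 20 FPKM, 6 were past 2-fold, or 28.6%, against 31.9% of all genes. All 8 members at 1 to 5 FPKM were past 2-fold, against 61.1% of all genes at that level, and 6 of these 8 belong to homologous recombination.

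**Figure D2:**
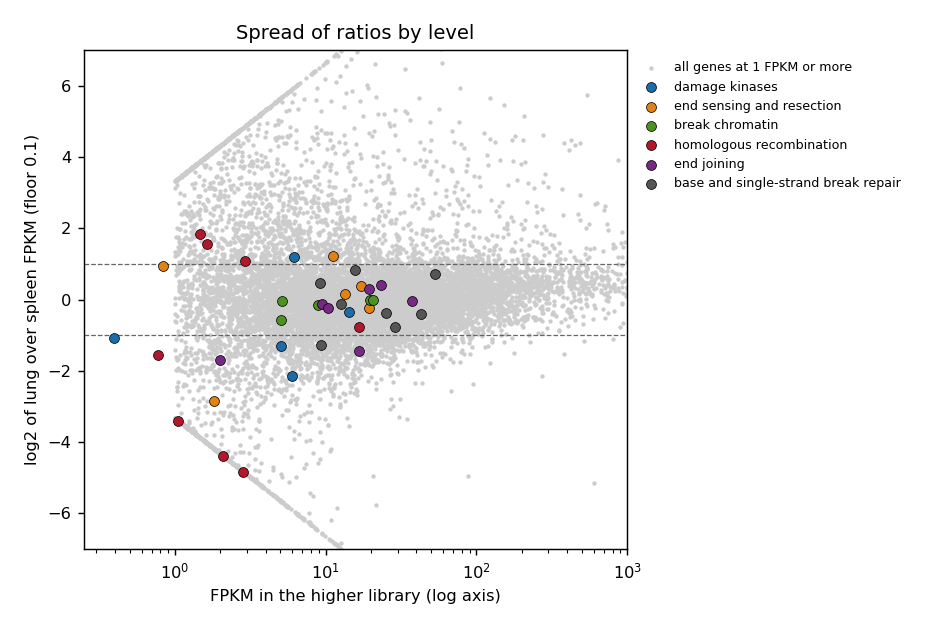
Log2 ratio of lung over spleen FPKM (vertical, floor of 0.1 FPKM) against the FPKM of the higher library (horizontal, log axis) for genes at 1 FPKM or more (grey) and for the 39 repair genes (coloured by role), with dashed lines at 2-fold. Of the 12094 grey genes, 237 lie beyond the axes, and the repair genes at 20 FPKM or more all stay between the dashed lines.

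The machinery that marks chromatin around a break was nearly level between the tissues. H2afx, the histone variant that is phosphorylated beside a break, stood at 19.8 FPKM in both libraries, from about 241 reads in spleen and 274 in lung (interval of the ratio 0.839 to 1.20). Rnf8, the first ubiquitin ligase of the cascade, measured 20.6 FPKM in spleen against 20.3 in lung. Rnf168, the ligase that extends the ubiquitin mark, was at 5.14 and 4.97 FPKM. All 5 genes of this role were thus within 1.5-fold, with a median log2 ratio of -0.05, and after rescaling to TPM all 5 were lower in lung and Mdc1 was past 2-fold. Trp53bp1, a reader of the mark that shields ends, had 8.93 FPKM in the spleen and 7.99 in the lung. Mdc1, the adaptor that binds phosphorylated H2AX, was the lowest in lung of the group, at 5.04 and 3.39 FPKM (1.49-fold lower, interval 1.27 to 1.74). Rnf8 to Rnf168 stood at a ratio of 4.01 in spleen and 4.08 in lung. The preparation does not mark the strand, and 22.1% of the Trp53bp1 exon bases are shared with Tubgcp4 on the opposite strand (21.7 and 30.5 FPKM), so reads there cannot be told apart. Rnf8 shares 28.5% of its exon bases with a readthrough gene that was at 0.332 and 0.514 FPKM.

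The 3 subunits of the complex that grips broken ends were also close. Mre11a, its nuclease, stood at 12.0 FPKM in spleen and 13.5 in lung. Rad50, the long coiled ATPase, was at 13.3 and 17.2 FPKM (1.30-fold higher, interval 1.17 to 1.43, log2 ratio -0.06 after rescaling to TPM). Nbn, the subunit that binds Atm, was at 19.3 and 16.3 FPKM. The order changed from Nbn above Rad50 in spleen to Rad50 above Nbn in lung. Genes that trim the ends spread more widely. Rbbp8, which starts resection together with this complex, measured 4.78 FPKM in spleen against 11.2 in lung (2.35-fold higher, interval 1.96 to 2.84, about 160 and 428 reads). Exo1, the exonuclease of long resection, was at 0.437 and 0.834 FPKM (1.91-fold higher, interval 1.26 to 2.97). Blm, the helicase, went the other way, at 1.82 FPKM in spleen and 0.252 in lung, from about 84.6 and 13.3 reads (7.25-fold lower, interval 4.12 to 14.5).

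Among the kinases that relay damage, Atm and Atr were both lower in lung. Atm, the kinase of double-strand breaks, had 5.06 FPKM in the spleen and 2.05 in the lung (2.47-fold lower, interval 2.11 to 2.90, about 503 and 231 reads). Atr, the kinase of stalled forks, was at 5.95 and 1.34 FPKM (4.44-fold lower, interval 3.65 to 5.48, about 487 and 124 reads). Atrip, the obligate partner of Atr and not among the 39 genes, stood at 10.3 FPKM in spleen and 2.84 in lung, so both partners had log2 ratios near -2 (-2.15 for Atr and -1.86 for Atrip). Topbp1, which activates Atr, was at 14.3 and 11.3 FPKM and within 2-fold. The effector kinases diverged from their activators in part. Chek2, the target of Atm, measured 2.70 FPKM in spleen against 6.21 in lung (2.30-fold higher, interval 1.67 to 3.16). Chek2 thus exceeded Atm 3.03-fold in lung, whereas Atm exceeded Chek2 1.88-fold in spleen. Chek1, the target of Atr, was near the lower end of detection at 0.393 and 0.186 FPKM, from 13 and 7 reads, and its interval of 0.160 to 1.28 for lung over spleen included equal levels.

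Homologous recombination held the widest spread of the 6 roles. Of its 8 genes, 3 were over 2-fold higher in lung, 4 were over 2-fold lower and only Rad52 lay between, and all but Rad52 were under 3 FPKM in both libraries. Brca1, the ligase that favours resection, had 0.554 FPKM in the spleen and 1.62 in the lung, from about 36.6 and 122 reads (2.93-fold higher, interval 1.996 to 4.32). Bard1, its obligate partner, was at 0.405 and 1.46 FPKM, from about 22.9 and 93.6 reads (3.60-fold higher, interval 2.26 to 5.95). These partners were higher together and stood at similar levels, with Brca1 1.37 times Bard1 in spleen and 1.11 times in lung.

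Palb2, Brca2, Rad51c and Xrcc3, which act after Brca1, were lower in lung. Palb2, which links Brca1 to Brca2, was at 2.08 FPKM in spleen, from about 58.8 reads, and listed at 0 in lung. There 3 reads would be 0.0936 FPKM, and with 3 reads credited to lung Palb2 was 22.2-fold lower. The limit of the exact interval was 17.6-fold lower. Brca2, which acts in strand exchange, stood at 0.773 FPKM in spleen and 0.261 in lung (2.96-fold lower, interval 1.94 to 4.58). Rad51c was at 1.05 FPKM in spleen, from about 28.2 reads, and listed at 0 in lung. It was 10.7-fold lower with 3 reads credited to lung, and 8.06-fold lower at the limit of the exact interval. Xrcc3, the partner of Rad51c, measured 2.83 FPKM in spleen against 0.0767 in lung, from 65 and 2 reads. Its ratio of spleen over lung was 36.9 without the floor, with an interval of 9.81 to 311, and 28.3 with the floor. Both of these partners were near or at 0 in lung, while Xrcc2, of the same gene family, had 1.38 FPKM in the spleen and 2.91 in the lung (2.11-fold higher, interval 1.48 to 3.11). Rad52, an annealing protein, was the most abundant gene of this role, at 16.7 and 9.75 FPKM (1.71-fold lower, interval 1.41 to 2.101).

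End joining was expressed more evenly, apart from a subunit of Ku and the ligase. Ku is a ring of the proteins encoded by Xrcc6 and Xrcc5 that slides onto broken ends. Xrcc6 stood at 37.5 FPKM in spleen and 36.7 in lung, from about 741 and 822 reads (ratio 0.977, interval 0.884 to 1.08). Xrcc5 measured 16.8 FPKM in spleen against 6.12 in lung, from about 408 and 169 reads (2.74-fold lower, interval 2.29 to 3.30). Xrcc6 therefore exceeded Xrcc5 2.24-fold in spleen and 5.995-fold in lung, although the proteins work as a heterodimer. In GRCm38 (mm10), the outer bounds of Xrcc5 are 72307421 and 72394952 on the plus strand of chromosome 1. Those of Xrcc6 are 81987835 and 82040085 on the plus strand of chromosome 15. The RefSeq start used for the Xrcc6 promoter below lies inside these bounds, after base 82016368.

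Prkdc, the catalytic kinase that Ku recruits, had 9.42 FPKM in the spleen and 8.70 in the lung. Dclre1c, the Artemis nuclease that Prkdc switches on, was at 17.7 and 23.4 FPKM (1.32-fold higher, interval 1.19 to 1.46). Its log2 ratio was -0.03 after rescaling to TPM. Both Prkdc and Dclre1c lay within 1.5-fold. Xrcc4, the scaffold of the ligase, was at 15.8 and 19.4 FPKM. Nhej1, the XRCC4-like factor, was at 10.4 and 8.92 FPKM. Lig4, the ligase itself, stood far below its scaffold, at 1.99 FPKM in spleen and 0.614 in lung (3.24-fold lower, interval 2.19 to 4.91, about 99.6 and 34.8 reads). Xrcc4 exceeded Lig4 7.92-fold in spleen and 31.6-fold in lung.

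Base and single-strand break repair contained the most abundant members, and 7 of its 8 genes were within 2-fold. Polb, the polymerase that fills the gap, stood at 32.8 FPKM in spleen and 53.3 in lung (1.63-fold higher, interval 1.42 to 1.86). Lig1, a ligase also used in replication, was at 8.84 and 15.6 FPKM (1.77-fold higher, interval 1.53 to 2.06). Lig3, the ligase that partners Xrcc1, measured 9.31 FPKM in spleen against 3.82 in lung (2.44-fold lower, interval 2.01 to 2.97). The 2 ligases were thus close in spleen, and in lung Lig1 exceeded Lig3 4.10-fold. Xrcc1, the scaffold, was at 25.2 and 19.5 FPKM.

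Parp1, the main sensor of strand breaks, had 28.7 FPKM in the spleen and 16.8 in the lung (1.71-fold lower, interval 1.56 to 1.88, about 1092 and 724 reads). Its relative Parp2 was at 42.9 and 32.1 FPKM (1.34-fold lower, interval 1.20 to 1.49). Both sensors were lower in lung, and Parp2 was above Parp1 in both libraries. Ogg1, the glycosylase for oxidised guanine, stood at 6.65 FPKM in spleen and 9.16 in lung (1.38-fold higher, interval 1.06 to 1.82). Apex1, the endonuclease that cuts at the lost base, was at 12.6 and 11.7 FPKM. Of the Apex1 exon bases, 70.8% are shared with a gene on the opposite strand listed as Tmem55b (39.7 and 30.2 FPKM), so the level of Apex1 is uncertain. Ogg1 shares 4.20% of its exon bases with Camk1, which measured 4.25 FPKM in spleen against 49.1 in lung.

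**Figure D3:**
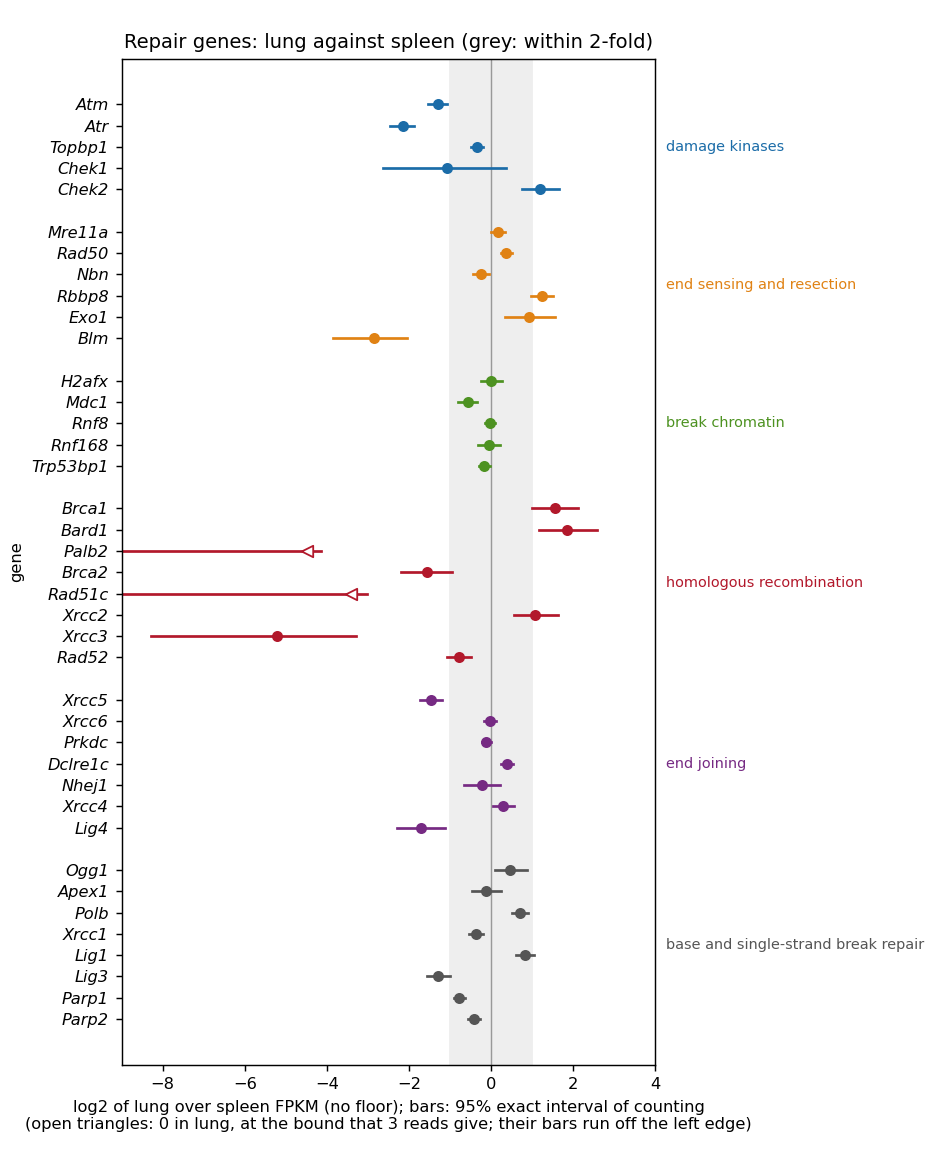
Log2 ratio of lung over spleen FPKM for each repair gene (rows, grouped by role), with 95% exact intervals of read counting as bars and the range within 2-fold in grey. The 5 break chromatin genes lie near 0, the homologous recombination genes lie on both sides, and Palb2 and Rad51c are drawn at the bound of 3 reads because they were listed at 0 in lung.

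Counting alone set limits on some of these ratios. Of the 11 genes over 2-fold lower in lung, 9 had intervals wholly beyond 2-fold, the exceptions being Chek1 and Brca2. Of the 5 genes over 2-fold higher, only Bard1 had such an interval. Among the 23 genes within 2-fold, 7 had intervals that included equal levels (Mre11a, H2afx, Rnf8, Rnf168, Xrcc6, Nhej1 and Apex1), 7 had intervals above 1 and 9 below 1. Transcript lengths of 13 members were medians over several transcripts, so their reads are approximate, and 26 members had a single length.

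Transcript length moved with the ratio across the whole library. Among all genes at 1 FPKM or more, the median log2 ratio was 0.52 for transcripts under 1000 nt, 0.27 at 1000 to 2000 nt, 0.01 at 2000 to 3000 nt, -0.17 at 3000 to 4000 nt, -0.20 at 4000 to 6000 nt and -0.27 from 6000 nt on. The repair genes were longer than most, with a median of 3344 nt for the 36 members at that level against 2656 nt for all genes. When the median of its length band was taken from each gene, a comparison chosen after the values had been seen, the median of the members was -0.20 and 5 of 36 were over 2-fold higher and 10 over 2-fold lower. Rad52, of 1655 nt, was past 2-fold in that comparison. The part of transcript length in single genes was not tested.

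**Figure D4:**
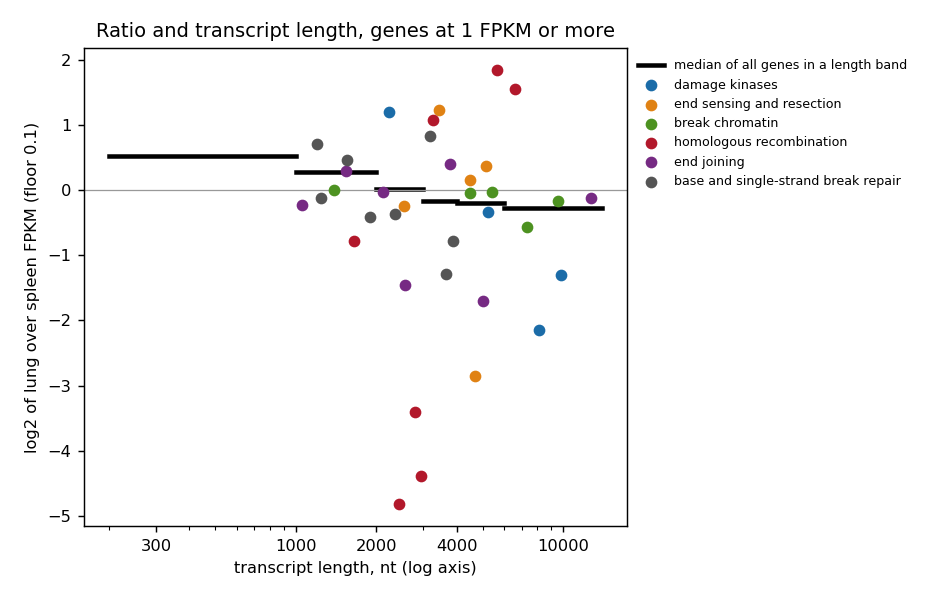
Log2 ratio of lung over spleen FPKM (floor of 0.1 FPKM) against transcript length in nt (log axis) for the 36 repair genes at 1 FPKM or more, with black lines at the median of all genes in each length band. The black lines step down from 0.52 to -0.27, and the repair genes scatter on both sides of them in each band that holds any.

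Promoters were examined for what the genes share beyond their function. RefSeq windows of GRCm38.p6 from 250 bases before to 50 bases after a transcription start were found for 31 of the 39 genes. No window was at hand for Rad50, Nbn, Rbbp8, Exo1, H2afx, Xrcc2, Prkdc and Polb. The E2F factors drive genes of the S phase, and their site was searched on both strands as TTTCCCGC, TTTCGCGC, TTTGCCGC or TTTGGCGC. It was present in 8 of the 31 genes (25.8%), against 2.26% of all 32851 windows and 4.67% of the 9650 genes with a window and at least 1 FPKM. The sites are shown with 11 bases on either side, in the direction of the gene and with the match in capitals, because these are the members that carry a replication-linked motif.
Bard1, chr1:71103163-71103192, minus strand: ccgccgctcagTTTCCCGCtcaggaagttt
Chek2, chr5:110839820-110839849, plus strand: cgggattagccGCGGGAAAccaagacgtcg
Lig1, chr7:13278841-13278870, plus strand: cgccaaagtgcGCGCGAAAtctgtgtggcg
Xrcc6, chr15:82016312-82016341, plus strand: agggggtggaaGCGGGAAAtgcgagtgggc
Topbp1, chr9:103305187-103305216, plus strand: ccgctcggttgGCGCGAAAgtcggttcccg
Mdc1, chr17:35841471-35841500, plus strand: tcttcagcctgTTTCCCGCcggtagccgca
Brca2, chr5:150522442-150522471, plus strand: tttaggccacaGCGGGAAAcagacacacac
Rad51c, chr11:87404477-87404506, minus strand: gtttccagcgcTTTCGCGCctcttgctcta
Rad51c, chr11:87404941-87404970, minus strand: cccccgcgaggGCGGGAAAagcaaggggtc

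The lines above run from the highest to the lowest log2 ratio. Bard1, Chek2 and Lig1 were higher in lung (1.85, 1.20 and 0.82), Xrcc6 was level (-0.03), and Topbp1, Mdc1, Brca2 and Rad51c were lower (-0.34, -0.57, -1.57 and -3.40). Genes with the same match thus went in both directions, with a median of -0.19 over these 8 genes and -0.42 over the 23 genes without a match. The sites lie 209 bases before the start in Bard1, 168 in Brca2, 152 in Chek2, 129 in Topbp1, 46 in Xrcc6 and 16 in Mdc1. In Lig1, which has 3 windows, the site begins 27 bases after the start of the second. Rad51c has 2 windows, with a site 12 bases after the start of the first and 5 before the start of the second. A match is a description of letters and not a bound site.

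Other motifs were nearer to the share of all expressed genes. The GC box GGGCGG was in 25 of the 31 genes (80.6%, against 66.7% of genes at 1 FPKM or more), CCAAT in 15 (48.4%, against 43.2%), the ETS site CCGGAAGT in 5 (16.1%, against 9.39%), the cell cycle element TTTGAA in 2 (6.45%, against 14.7%) and the NRF1 site GCGCATGCG in 1 (3.23%, against 4.09%). Some GC boxes share bases with E2F matches, as in the second window of Rad51c. The 250 bases before the start are shown for the partners Brca1 and Bard1, which were higher in lung together, and for Xrcc6 and Xrcc5, which parted, with every searched motif in capitals.
Brca1, chr11:101551956-101552205, minus strand: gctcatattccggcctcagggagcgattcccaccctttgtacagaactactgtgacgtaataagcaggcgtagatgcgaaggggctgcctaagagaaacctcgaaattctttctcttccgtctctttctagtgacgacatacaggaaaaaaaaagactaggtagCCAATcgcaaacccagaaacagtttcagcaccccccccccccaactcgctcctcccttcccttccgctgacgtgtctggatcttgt
Bard1, chr1:71102973-71103222, minus strand: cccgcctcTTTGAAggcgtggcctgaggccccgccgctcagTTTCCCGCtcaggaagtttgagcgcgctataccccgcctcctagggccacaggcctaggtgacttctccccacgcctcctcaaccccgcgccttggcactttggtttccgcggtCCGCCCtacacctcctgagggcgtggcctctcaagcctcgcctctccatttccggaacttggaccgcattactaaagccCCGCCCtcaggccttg
Xrcc6, chr15:82016119-82016368, plus strand: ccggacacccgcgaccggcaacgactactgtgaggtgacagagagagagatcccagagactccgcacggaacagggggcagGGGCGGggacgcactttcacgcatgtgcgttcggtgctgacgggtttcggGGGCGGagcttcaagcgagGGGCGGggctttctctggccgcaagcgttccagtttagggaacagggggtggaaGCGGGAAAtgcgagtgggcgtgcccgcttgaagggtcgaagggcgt
Xrcc5, chr1:72307171-72307420, plus strand: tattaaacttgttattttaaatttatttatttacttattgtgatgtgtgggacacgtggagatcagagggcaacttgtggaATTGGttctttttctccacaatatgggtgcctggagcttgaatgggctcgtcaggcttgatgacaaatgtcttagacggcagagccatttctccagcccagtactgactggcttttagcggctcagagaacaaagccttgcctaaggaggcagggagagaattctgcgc

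Brca1 held a CCAAT box 86 bases before its start and no E2F match, whereas Bard1 held an E2F match, 2 GC boxes at 95 and 16 bases and a cell cycle element at 242 bases. The 2 partners thus shared none of the searched motifs. Xrcc6 held 3 GC boxes, at 169, 119 and 100 bases, and an E2F match, and Xrcc5 held a CCAAT box at 169 bases. Xrcc6 also has a CCAAT box in the 50 bases after the start, which are not shown, so this motif is common to both Ku genes.

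Many of these genes start near the start of a gene on the opposite strand. A start of another listed gene within 1000 bases on the other strand was found for 16 of the 39 members (41.0%), against 18.2% of the 10984 protein-coding genes at 1 FPKM or more. Starts of members were outer bounds of the gene, so Xrcc6 was not searched at the promoter shown above. The neighbours include overlapping genes and antisense RNAs, and some were at 0 in both libraries. Whether a pair shares a promoter was not tested. Prkdc and Mcm4, a subunit of the replicative helicase, begin 466 bases apart and were both level, with log2 ratios of -0.11 and -0.16. Chek2 and Hscb, 202 bases apart, were both higher in lung, with Hscb at 20.4 FPKM in spleen and 35.8 in lung. Lig4 and Abhd13, 21 bases apart, were both lower, with Abhd13 at 10.9 and 0.594 FPKM.

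Other pairs moved unequally. Palb2 lies 56 bases from Dctn5, a dynactin subunit that had 108 FPKM in the spleen and 104 in the lung while Palb2 was listed at 0 in lung. Brca1 lies 194 bases from Nbr1, an autophagy receptor at 22.3 and 21.7 FPKM. Atm lies 307 bases from Npat, a regulator of histone genes at 5.32 and 3.87 FPKM, and both were lower in lung (log2 ratios of -1.30 and -0.46). In the pairs of Palb2, Brca1 and Atm the repair gene differed more between the libraries than its neighbour. Lig3 differed less than the antisense RNA Gm11423, which was at 7.08 and 0 FPKM (log2 ratios of -1.28 and -6.15). Xrcc3 was lower in lung while Zfyve21, 297 bases away, was higher, at 5.16 and 10.2 FPKM. Atr and the antisense RNA 1700065D16Rik were both lower (log2 ratios of -2.15 and -1.93). Mre11a was level while Ankrd49, with which it overlaps, stood at 19.5 FPKM in spleen and 5.46 in lung. The remaining pairs are not reported here.

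The wider repair network was read from 9 lists with 99 further genes, all of them listed. Of these, 4 were over 2-fold higher in lung and 24 over 2-fold lower, with a median log2 ratio of -0.24. Of the 99 genes, 92 reached 1 FPKM in either library, where 17.8% of all genes were over 2-fold higher and 15.5% over 2-fold lower. These are the nearer shares to set beside the counts of these lists. Of all listed symbols, many of them at 0, 11.0% were over 2-fold higher and 11.7% over 2-fold lower. Partners of Trp53bp1 and of the Brca1 complex that act on marked chromatin were all within 2-fold (10 of 10), with Rif1 at 12.5 FPKM in spleen and 7.30 in lung and Brcc3 at 53.7 and 89.2. After rescaling to TPM, Rif1 and Usp28 of this list were past 2-fold. A list of enzymes that clean blocked ends such as BLM leaves, together with Blmh, was also within 2-fold (5 of 5, all but Tdp1 after rescaling to TPM). Among them Tdp1, which removes protein remnants from ends, was at 16.8 and 10.3 FPKM, and Blmh, the hydrolase that inactivates BLM, at 29.3 and 24.9.

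The other genes of homologous recombination resembled the members of that role in part, with 0 of 19 over 2-fold higher and 6 over 2-fold lower. Slx4, a nuclease scaffold, was at 5.98 and 0.940 FPKM, and Rad54l, a motor protein, at 1.61 and 0.405. Of 13 clamp and checkpoint genes, 2 were over 2-fold lower, Atrip and Rpa2 (30.3 and 12.6 FPKM), while Rpa1 and Rpa3 were within 1.5-fold. Of 14 further base excision genes, the glycosylases Neil1 (13.7 and 28.5 FPKM) and Neil3 (1.18 and 2.78) were over 2-fold higher, though not after rescaling to TPM, and Ung and Neil2 over 2-fold lower. Of 5 other end joining genes none was higher in lung, and Dntt and Polq, both under 1 FPKM in spleen, were over 2-fold lower.

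Genes of proliferation are given because several recombination genes are transcribed in cycling cells. Of 22 such genes, 15 were higher in lung, 5 of them over 2-fold, and 1 was over 2-fold lower, with a median log2 ratio of 0.32. All 22 reached 1 FPKM, where 17.8% of all genes were over 2-fold higher and 15.5% over 2-fold lower. Tyms, of thymidylate synthesis, was at 6.10 and 17.5 FPKM, E2f1 at 1.70 and 5.74, and Mki67 at 2.30 and 3.11. Aurkb, a mitotic kinase, was the gene over 2-fold lower, at 2.32 and 0.0486 FPKM. The replicative helicase genes were closer to level, with Mcm6 at 78.2 and 89.5 FPKM and Mcm7 at 33.9 and 21.3. After rescaling to TPM, which takes 0.43 from each log2 ratio, this median was negative. The part of proliferation in Brca1 and Bard1, which were higher in lung, or in Brca2, Palb2 and Blm, which were lower, was not tested.

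**Figure D5:**
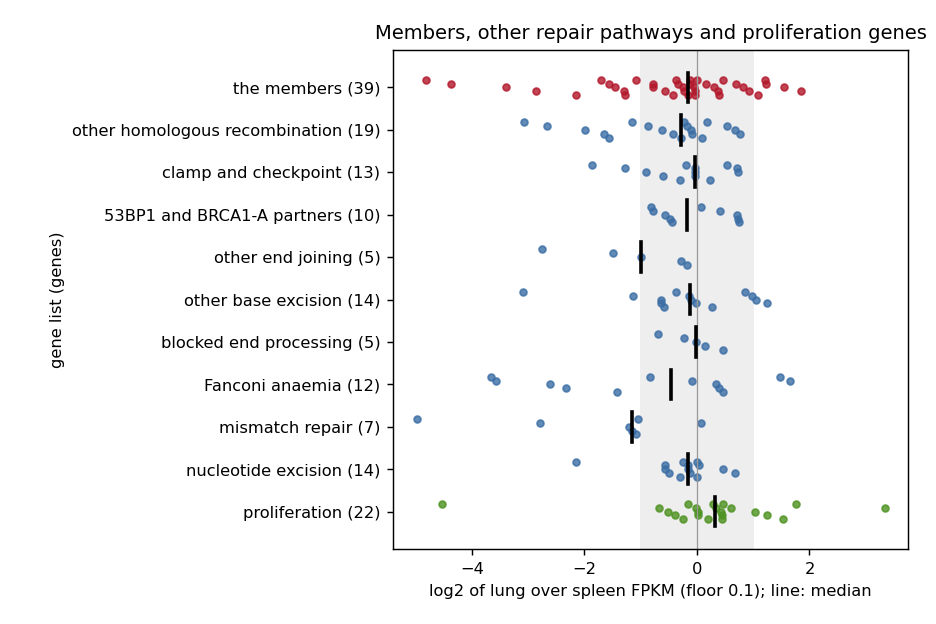
Log2 ratio of lung over spleen FPKM (floor of 0.1 FPKM) for the 39 members, 9 lists of other repair genes and a list of proliferation genes, with 1 point per gene, the median of each list as a line and the range within 2-fold in grey. The median is -0.16 for the members, lies near -1.16 for mismatch repair and is 0.32 for proliferation.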

How the data were processed

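Bulk RNA-seq of GFP+CD4+ T cells was analysed, with 1 library of spleen and 1 of lung. Full-length cDNA was made with a SMART-Seq kit, which does not mark the strand, and reads were 75 bases long. The submitters' processing notes name mm10, TopHat2 2.1.1, Bowtie2 2.2.8, SAMtools 0.1.18 and Cuffdiff 2.2.1, and the authors deposited FPKM per gene. The annotation and scaling between libraries are not given in the sources used here. FPKM were floored at 0.1. Transcript lengths came from GENCODE M21 (GRCm38) and were found for 23675 of 24346 symbols, 97.2%. One read at an effective length of 1 kb was worth 0.0965 FPKM in spleen and 0.0850 in lung, the value shared by the largest number of low genes (214 and 131), with a fragment mean of 200, SD of 80 and a shortest fragment of 71. Among genes of a single length with 1 to 10 reads, 72.6% and 74.6% were within 0.1 of a whole number. For a member at 0, a ratio with 3 reads credited is given beside the limit of the exact interval. Steps were tested on simulated data.

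The members, the role groups and the lists of other genes were chosen with earlier results of these data known. All members were named, and of other lists up to 3 genes at either end of the ratio among those at 1 FPKM or more. Some of the genes that start head to head with a member were named as well. Others (such as Rpa1, Rpa3, Ung, Neil2, Dntt, Polq, Mki67 and Mcm6) were chosen after their values were seen, and some genes of these lists are not reported here. The proliferation, marker and repair lists were written by hand. Settings tried were floors, pseudocounts, scalings, filters and folds. Coordinates are those of GRCm38. Tools were matplotlib 3.10.9, scipy 1.17.1, pandas 2.3.3 and numpy 2.4.6 under Python 3.11.15.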

Additional observations from a re-analysis of the deposited data

How the results depend on the processing

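No paired analysis was possible because each tissue had 1 library. The counts of 5 genes over 2-fold higher and 11 lower in lung held within 1.5 times, and the median of -0.16 within 0.1, with a floor of 0.01 FPKM, a pseudocount of 0.1 FPKM, a median ratio of 1, filters on 1 FPKM or 10 estimated reads, at least 3 reads in each library, and the comparison by length band added after the values were seen. With a floor of 1 FPKM the counts were 3 and 6, and with a pseudocount of 1 FPKM 1 and 7, since both settings shrink ratios of low genes by construction. Rescaling to TPM gave 2 and 14 with a median of -0.59, and equal upper quartiles gave 4 and 11 with a median of -0.34. At 1.5-fold the counts were 8 and 13, and at 4-fold 0 and 5. None of the 16 genes past 2-fold took the opposite direction, but these 11 settings could not have reversed them. Floors, pseudocounts and filters keep the sign of a ratio. The shifts by scale or length band were smaller than the log2 of 1 that marks 2-fold. The filter on 10 estimated reads removed no member. Chek1, Brca1, Bard1, Brca2 and Lig4 were within 2-fold both with a floor and with a pseudocount of 1 FPKM, Blm and Rad51c with the floor alone, and Atm, Chek2 and Xrcc2 with the pseudocount alone. Intervals cover counting error only, and depth limits Chek1, Xrcc3, Palb2 and Rad51c most.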

Other observations

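Mismatch repair genes, which remove copying errors and were not among the 39 genes, were lower in lung in 6 of 7 cases, each over 2-fold, with a median log2 ratio of -1.16. All 7 reached 1 FPKM, where 15.5% of all genes were over 2-fold lower. Msh6, a subunit of a mismatch recognition complex, was at 31.3 and 4.55 FPKM, 6.89-fold lower. Msh3, a subunit of another such complex, was the exception and was level, at 11.5 FPKM in spleen and 12.0 in lung. Pms2, of a downstream nuclease, was at 11.8 and 5.14 FPKM, Pms1 at 7.18 and 3.37, and Mlh3, which also acts in meiosis, at 5.09 and 0.161. These genes had a median transcript length of 3942 nt, in the range where the median log2 ratio of all genes was -0.17, and the part of length was not tested.

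Fanconi anaemia genes, which undo crosslinks between strands, went in both directions, with 2 of 12 over 2-fold higher and 5 over 2-fold lower. Of the 12 genes, 11 reached 1 FPKM, where the shares of all genes were 17.8% and 15.5%. Among all listed symbols the shares were 11.0% and 11.7%. Fancl, the ubiquitin ligase of the pathway, was at 11.3 and 31.3 FPKM, and Ube2t, the conjugating enzyme that works with it, at 7.83 and 24.7. This pair was higher together, by 2.78-fold and 3.16-fold. Fan1, a nuclease, was at 2.63 and 0.208 FPKM, and Fanca, of the core complex, at 2.07 and 0.412. Nucleotide excision genes, which cut out bulky damage, were within 2-fold in 13 of 14 cases, with Ercc4 (9.91 and 2.24 FPKM) as the exception, joined by Ercc8 after rescaling to TPM.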
